A study of Mus musculus with 26 samples.

Results

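The 10 genes described here are immediate early genes, chosen by name: Fos, Fosb, Fosl2, Junb, Egr1, Egr2, Arc, Npas4, Nr4a1 and Ier2. They are 10 of the 23107 genes in the table of counts, and all 10 were found in it. The rule that names them uses no measured value, but it was set with earlier results of these data known. The study measured RNA of gonadotropin-releasing hormone (GnRH) neurons by translating ribosome affinity purification. Mice carried a GnRH-Cre transgene, inherited from homozygous males, and a floxed-stop L10a-GFP allele, inherited from homozygous females, so that the ribosomal protein L10a carries green fluorescent protein in the cells where the GnRH promoter drives Cre. Tagged ribosomes were pulled down from pooled preoptic area punches. Each pool gave an immunoprecipitate (RNA enriched for GnRH neurons) and a supernatant (the RNA left behind). The supernatant holds RNA of the other cells of the area and was not free of GnRH neuron RNA.

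All mice carried both alleles and were adults of 55 to 165 days. The 13 pools are 3 of intact females in diestrus, 3 of ovariectomized females, 4 of intact males and 3 of orchidectomized males, with 5 to 7 mice in each, and 26 libraries in 8 groups follow from them. Replicates carry the numbers 0 to 3 of the labels. The labels also number the libraries from 1 to 30. Numbers 1 to 10, called earlier here, hold both fractions of 4 intact pools of 6 or 7 mice (replicates 0 and 1 of each sex). Numbers 11 to 30, called later, hold the other 3 intact pools, of 5 mice each, and all gonadectomized pools, of 7 (ovariectomized) or 5 (orchidectomized) mice. What the numbers stand for is not given in the sources used here. Earlier and later numbers are set against each other in intact pools. The main fits of fractions, gonadectomy and sex hold both sets without a term for the numbers. Values from earlier or later libraries alone are named as such.

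Immediate early genes are transcribed within minutes of a stimulus, from factors already present in the cell and without new protein synthesis. Calcium and cyclic AMP signals act through the factor CREB at cyclic AMP response elements, and growth factor signals act through serum response factor at CArG boxes. In the hypothalamus their RNA and protein are widely used as marks of recently active cells, Fos above all, and Fos protein in GnRH neurons is a classic mark of the preovulatory surge. Fos, Fosb and Fosl2 encode FOS-family subunits of the AP-1 factor and Junb a JUN-family partner. Egr1 and Egr2 encode zinc-finger transcription factors, Npas4 a neuron-specific basic helix-loop-helix factor induced by calcium entry, and Nr4a1 an orphan nuclear receptor. Arc encodes a cytoskeleton-associated protein of synapses, and Ier2 a small nuclear protein.

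The promoters of 4 members that differed between earlier and later supernatants are shown, since TGACG, the core of the cyclic AMP response element, occurs in each. Each run is 300 bases of RefSeq sequence (GRCm38.p6), 250 before a transcript start annotated by RefSeq and 50 from it on, on the coding strand, and capitals mark TGACG read on either strand (CGTCA on the other).
Fos, chr12:85473640-85473939, plus strand: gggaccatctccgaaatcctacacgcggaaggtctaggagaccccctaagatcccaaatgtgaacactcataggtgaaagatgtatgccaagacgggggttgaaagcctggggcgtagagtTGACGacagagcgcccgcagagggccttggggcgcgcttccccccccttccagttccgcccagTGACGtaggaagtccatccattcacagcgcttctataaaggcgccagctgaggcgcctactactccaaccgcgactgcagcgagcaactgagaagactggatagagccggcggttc
Junb, chr8:84978699-84978998, minus strand: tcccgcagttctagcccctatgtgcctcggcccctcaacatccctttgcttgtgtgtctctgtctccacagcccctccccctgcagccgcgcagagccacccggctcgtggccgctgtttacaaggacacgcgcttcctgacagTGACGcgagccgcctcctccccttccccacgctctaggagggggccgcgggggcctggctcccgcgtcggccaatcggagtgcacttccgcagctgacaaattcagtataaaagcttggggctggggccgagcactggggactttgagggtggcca
Npas4, chr19:4989922-4990221, minus strand: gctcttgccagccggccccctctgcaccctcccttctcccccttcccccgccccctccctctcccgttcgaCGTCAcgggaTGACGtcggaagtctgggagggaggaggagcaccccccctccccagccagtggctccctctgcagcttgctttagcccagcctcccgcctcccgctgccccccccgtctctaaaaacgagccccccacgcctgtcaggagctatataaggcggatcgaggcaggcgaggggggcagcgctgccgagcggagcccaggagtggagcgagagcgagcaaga
Nr4a1, chr15:101266596-101266895, plus strand: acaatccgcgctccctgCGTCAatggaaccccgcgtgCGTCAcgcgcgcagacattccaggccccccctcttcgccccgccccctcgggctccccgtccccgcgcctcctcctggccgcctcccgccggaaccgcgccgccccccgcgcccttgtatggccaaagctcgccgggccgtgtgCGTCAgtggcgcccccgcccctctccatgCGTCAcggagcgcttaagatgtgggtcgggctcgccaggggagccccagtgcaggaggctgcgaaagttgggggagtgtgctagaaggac
For Fos, the RefSeq start is the first base of the GENCODE gene given below. For Nr4a1 it is an internal start, 12577 bases inside the GENCODE gene, and for Npas4 it lies 345 bases inside. The Fos window held 2 copies, the first bases of which lie 129 and 66 bases before the start. Nr4a1 held 4 copies, Npas4 held 2 and Junb held 1. Among the other matched members, Fosb held 1 copy and Fosl2 none. Egr2, which has several annotated starts, held the motif in some of its windows and was the one matched member with a CArG box in these windows. In all, 7 members were matched to the table of promoters, and Arc, Ier2 and Egr1 were not. Of 32851 promoter windows of this length, 20.8% held TGACG on either strand, 1.79% held the full element TGACGTCA (which contains TGACG) and 1.63% held a CArG box. None of the members' windows held the full element or GCGTGGGCG, the site bound by EGR proteins, which 0.612% of windows held. These matches describe letters in the windows searched, and sites more than 250 bases before a start were not looked for.

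In GENCODE vM21 coordinates of GRCm38, the genome build named as mm10 in the processing notes, Fos lies at chr12:85473890-85477273 on the plus strand and Fosb at chr7:19302696-19310051 on the minus strand. Fosl2 lies at chr5:32135801-32157842, Egr1 at chr18:34859823-34864984, Egr2 at chr10:67535475-67542188 and Nr4a1 at chr15:101254269-101274795, all on the plus strand. Arc lies at chr15:74669083-74672570, Npas4 at chr19:4984355-4990316, Ier2 at chr8:84661331-84662852 and Junb at chr8:84974484-84978718, all on the minus strand. Only Junb overlaps another annotated gene, Prdx2 on the opposite strand. The library kit does not mark strand, so Junb reads in the overlap cannot be told apart from those of Prdx2, which stood at 404.0 to 672.7 counts per 1000000 (CPM) in the supernatants and 531.6 to 1014 CPM in the immunoprecipitates.

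Libraries held 27217000 to 56669000 estimated counts. CPM values are scaled by the trimmed mean of M-values (TMM) over all 26 libraries. Gnrh1, the defining transcript of the tagged cells, was higher in the immunoprecipitate by a log2 fold change of 5.58 ± 0.51 (SE, adjusted p 5.27e-09, edgeR quasi-likelihood test with Benjamini-Hochberg adjustment). It was present in each supernatant too, at 47.5 to 1579 CPM. Listed GnRH neuron markers summed to 17250 to 21350 CPM in the earlier immunoprecipitates and to 3400 to 9144 CPM in the later ones. Among the supernatants, intact female replicate 2 stood apart with 1675 CPM of these markers, the next highest having 548.9 CPM. The supernatant of intact male replicate 3 held 1166 CPM of blood markers, the next highest having 60.63 CPM. The immunoprecipitate of orchidectomized replicate 0 was highest in endothelial and mural (366.6 CPM) and astrocyte markers (1999 CPM). The edgeR biological coefficient of variation was 0.56 between replicate immunoprecipitates and 0.181 between replicate supernatants. All 10 members passed the filter on low counts in each fit.

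Per kilobase of merged exon, Junb and Egr1 had the highest levels and Fosb the lowest. Mean supernatant levels over 13 pools were 49.1 ± 16.6 CPM per kilobase for Junb and 36.2 ± 10.1 for Egr1 (SD). Fos (17.3 ± 5.62), Arc (16.5 ± 5.73) and Nr4a1 (15.8 ± 6.97) came next. Their spreads over pools overlapped, as did those of Junb and Egr1. Levels of different genes were not tested against each other within pools. Ier2 had 8.46 ± 2.25 CPM per kilobase. Npas4 (1.48 ± 0.43), Fosl2 (1.18 ± 0.20), Egr2 (0.989 ± 0.375) and Fosb (0.653 ± 0.173) were the lowest, and each lay within the spread of its neighbour. The first 7 kept this order in the immunoprecipitates, from Junb at 42.1 ± 13.1 to Npas4 at 1.37 ± 1.09 CPM per kilobase, whereas Egr2 (0.814 ± 0.541) stood above Fosl2 (0.701 ± 0.465) and Fosb (0.345 ± 0.1698). All members had reads in each library. The lowest counts were 2 reads of Npas4 in the immunoprecipitate of intact female replicate 0 and 3 reads of Egr2 in those of intact male replicates 0 and 1.

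**Figure D1:**
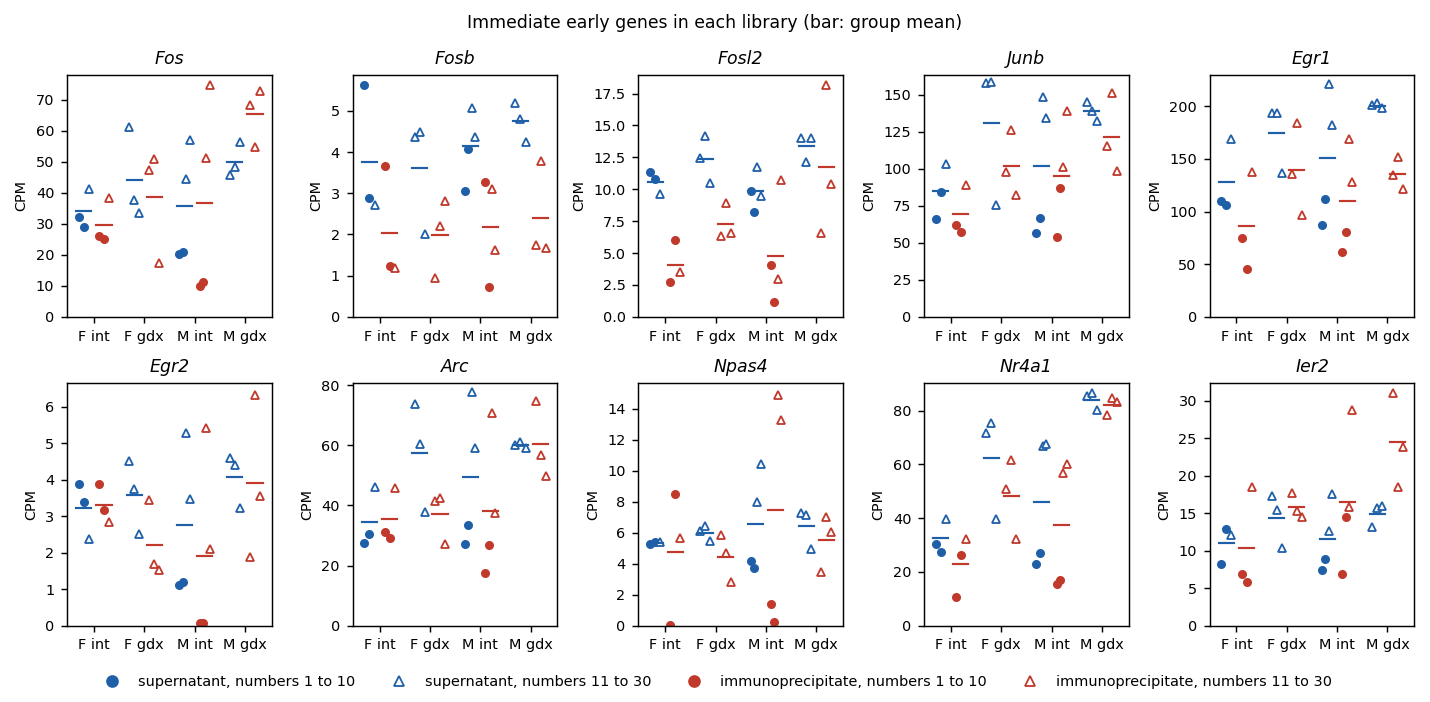
Normalised read counts in CPM (vertical axis) of the 10 genes in each of 26 libraries, by condition (F female, M male, int intact, gdx gonadectomized). Blue marks supernatants and red immunoprecipitates, filled circles are library numbers 1 to 10, open triangles 11 to 30, and bars are group means. Most filled circles of Fos, Junb, Egr1, Arc and Nr4a1 lie low within the intact groups.

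In intact mice, most of the 10 genes were higher in the later than in the earlier supernatants, about 2-fold for Fos, Junb, Egr1, Arc and Nr4a1. With sex as a term, 7 of 10 members passed as higher and none as lower (edgeR, adjusted p under 0.05 over 16780 genes), where 8.98% of all genes tested passed as higher. The median log2 difference of the members was 0.91, against 0.01 over all genes. In 6 of 10 members the 3 later intact supernatants all lay above the 4 earlier ones (Npas4 only beyond the digits printed here), as did 12.2% of all genes.

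Fos stood at 32.1 and 29.03 CPM in the earlier females and 20.3 and 21.04 CPM in the earlier males, and at 41.3 CPM in the later female and 44.6 and 56.96 CPM in the later males. The earlier and later values did not overlap, and the earlier females lay above the earlier males. The difference was 0.99 ± 0.17 (log2, SE; adjusted p 0.0037, edgeR). Junb, the JUN-family partner, had 66.1, 84.5, 56.9 and 67.1 CPM in the earlier pools (females first) and 103, 148 and 134 CPM in the later ones. Here too all later values lay above the earlier ones (0.93 ± 0.14, adjusted p 0.0025, edgeR). Fosb had 5.64, 2.89, 3.06 and 4.08 CPM in the earlier and 2.73, 5.07 and 4.38 CPM in the later pools, so that its highest supernatant value was an earlier one (0.03 ± 0.29, adjusted p 0.962, edgeR). Fosl2 had 8.21 to 11.4 CPM in the earlier and 9.46 to 11.8 CPM in the later pools and did not pass either (0.08 ± 0.14, adjusted p 0.743, edgeR).

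Among the zinc-finger genes, Egr1 had 110, 106, 87.6 and 112 CPM in the earlier supernatants and 169, 221 and 182 CPM in the later ones. The 2 sets were apart by a wide margin (0.89 ± 0.11, adjusted p 0.0011, edgeR). Egr2 had 3.87, 3.38, 1.11 and 1.21 CPM in the earlier and 2.39, 5.28 and 3.46 CPM in the later pools. Its earlier females lay above the later female, and only its male values were apart (0.98 ± 0.47, adjusted p 0.177, edgeR). Nr4a1, the orphan receptor, had 30.4, 27.5, 22.96 and 27.2 CPM in the earlier and 39.9, 66.7 and 67.5 CPM in the later pools. Later values were higher without overlap, the males more so than the female (1.08 ± 0.17, adjusted p 0.0027, edgeR). Arc, the synaptic gene, went from 27.4, 30.4, 27.2 and 33.5 CPM to 46.1, 77.7 and 59.0 CPM, again without overlap (1.00 ± 0.13, adjusted p 0.0013, edgeR).

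Npas4 and Ier2 differed less. Npas4 had 5.25, 5.37, 4.17 and 3.73 CPM in the earlier and 5.37, 7.99 and 10.4 CPM in the later pools, the later female level with the earlier females (0.78 ± 0.24, adjusted p 0.0444, edgeR). Ier2 had 8.19, 12.8, 7.44 and 8.83 CPM in the earlier and 12.1, 12.7 and 17.5 CPM in the later pools, and these overlapped (0.65 ± 0.20, adjusted p 0.0487, edgeR). Both calls were lost on leaving out the supernatant of intact female replicate 0 or of any 1 intact male pool, and with the size factors of DESeq2. The calls of Fos, Junb, Egr1, Arc and Nr4a1 held on leaving out each intact supernatant in turn, also that of intact male replicate 3, which held blood markers and the highest Fos, Npas4 and Ier2 values of the intact supernatants.

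Within the males alone, 2 pools against 2, the later supernatants were higher by 1.44 for Nr4a1, 1.32 for Fos, 1.21 for Junb, 1.19 for Arc and 1.03 for Egr1 on the log2 scale. Egr2 passed there as well (1.93 ± 0.29, adjusted p 0.0132, edgeR), and 8 of 10 members did in all, where 3.31% of all genes passed as higher in this fit. In females only 1 later pool stood against 2. Its supernatant was 1.38 times the earlier mean for Nr4a1, 1.35 times for Fos, 1.56 times for Egr1 and 1.01 times for Npas4, and 0.659 times for Egr2. Whether the sexes differ in this was not tested.

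The immunoprecipitates gave a higher median difference than the supernatants but fewer calls. Fos (1.87 against 0.99) and Nr4a1 (1.47 against 1.08) had larger values there, Junb (0.72 against 0.93) a smaller one and Arc (1.04 against 1.00) a like one. In the intact immunoprecipitates 5 of 10 members passed as higher in the later libraries and none as lower, where 4.15% of all genes passed as higher (edgeR). The median was 1.21, against 0.08 over all genes. Here, too, all later values of 6 members lay above all earlier ones, as they did for 12.2% of all genes.

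Fos stood at 25.99, 25.01, 9.987 and 11.4 CPM in the earlier immunoprecipitates (females first) and at 38.4, 51.2 and 74.9 CPM in the later ones. The earlier males were the lowest 2 of these (1.87 ± 0.40, adjusted p 0.0172, edgeR). Nr4a1 had 10.7, 26.4, 15.3 and 16.9 CPM against 32.1, 56.9 and 60.0 CPM, with no overlap (1.47 ± 0.36, adjusted p 0.0276, edgeR). Egr1 had 74.8, 45.9, 62.0 and 80.1 CPM against 137, 169 and 128 CPM, also with no overlap (1.14 ± 0.19, adjusted p 0.0050, edgeR). Of the 3 genes, Egr1 had the tightest later values.

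Arc had 31.3, 29.3, 17.5 and 26.9 CPM in the earlier and 45.9, 70.7 and 37.4 CPM in the later immunoprecipitates (1.04 ± 0.28, adjusted p 0.0444, edgeR). Junb had 61.7, 57.1, 53.8 and 87.2 CPM against 89.1, 102 and 139 CPM (0.72 ± 0.19, adjusted p 0.0422, edgeR). Neither gene overlapped, although the highest earlier and lowest later Junb values lay close together. Ier2 went from 6.93, 5.83, 6.91 and 14.5 CPM to 18.5, 15.9 and 28.8 CPM without overlap and just missed the threshold (1.28 ± 0.37, adjusted p 0.0528, edgeR). Npas4 was uneven, at 0.0531, 8.52, 1.42 and 0.211 CPM in the earlier and 5.66, 14.9 and 13.2 CPM in the later pools. Egr2 had 3.88 and 3.18 CPM in the earlier females, as high as most later pools, but 0.0732 and 0.0793 CPM in the earlier males. Neither Npas4 (2.93 ± 1.59, adjusted p 0.292) nor Egr2 (3.90 ± 1.65, adjusted p 0.172) passed, and neither did Fosl2 (0.78 ± 0.80) or Fosb (-0.21 ± 0.93; edgeR).

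The number of members that passed in the immunoprecipitates rested on single libraries. It fell to 1, Egr1, without the immunoprecipitate of intact male replicate 0, 2 or 3. It was 3 without that of intact male replicate 1 or of intact female replicate 0 or 2. Egr1 held in 6 of these 7 fits, with an adjusted p of 0.0508 without intact female replicate 2. Fos and Nr4a1 passed in 3 of the 7, Junb in 1 and Arc in none. The size factors of DESeq2 in the edgeR fit gave 3 members, where 3.77% of all genes passed as higher, and the Wald test of DESeq2 gave 8, where 8.46% did. With both fractions in 1 model, no member differed between earlier and later libraries in its immunoprecipitate to supernatant ratio, in edgeR, DESeq2 or limma voom, and none had an unadjusted p under 0.05 in edgeR; 9.5% of all genes passed that test. Without the immunoprecipitate of intact female replicate 1 or 2 there were 1 (Npas4) and 2 (Egr2 and Fos) calls.

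Cell type markers moved with the library numbers too. Astrocyte markers summed to 607.7 to 730.4 CPM in the earlier intact supernatants and to 411.3 to 461.8 CPM in the later ones, and 5 of 7 fell. Microglia markers summed to 65.67 to 106.4 and 47.53 to 63.14 CPM in the same order, and 4 of 8 fell. Neuron markers summed to 4619 to 4945 and 5227 to 6026 CPM, with 2 of 8 higher and 1 lower. Oligodendrocyte markers summed to 1928 to 2590 and 1766 to 2023 CPM, with 4 of 8 lower, and ependymal markers to 48.9 to 71.35 and 44.16 to 53.52 CPM, with 2 of 5 lower. In the immunoprecipitates, where Gnrh1 fell by 2.24 (log2, adjusted p 7.41e-05, edgeR), 4 of 5 GnRH neuron markers fell. No marker of these lists was at 0 in these libraries. The part of these shifts, and of the number of mice in a pool, in the differences of the immediate early genes was not tested. In such pools, fewer cells of a type and less RNA per cell cannot be told apart. Of 10 listed heat shock genes 1 passed, Hspe1, which fell by 0.92 in the immunoprecipitates (edgeR).

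**Figure D2:**
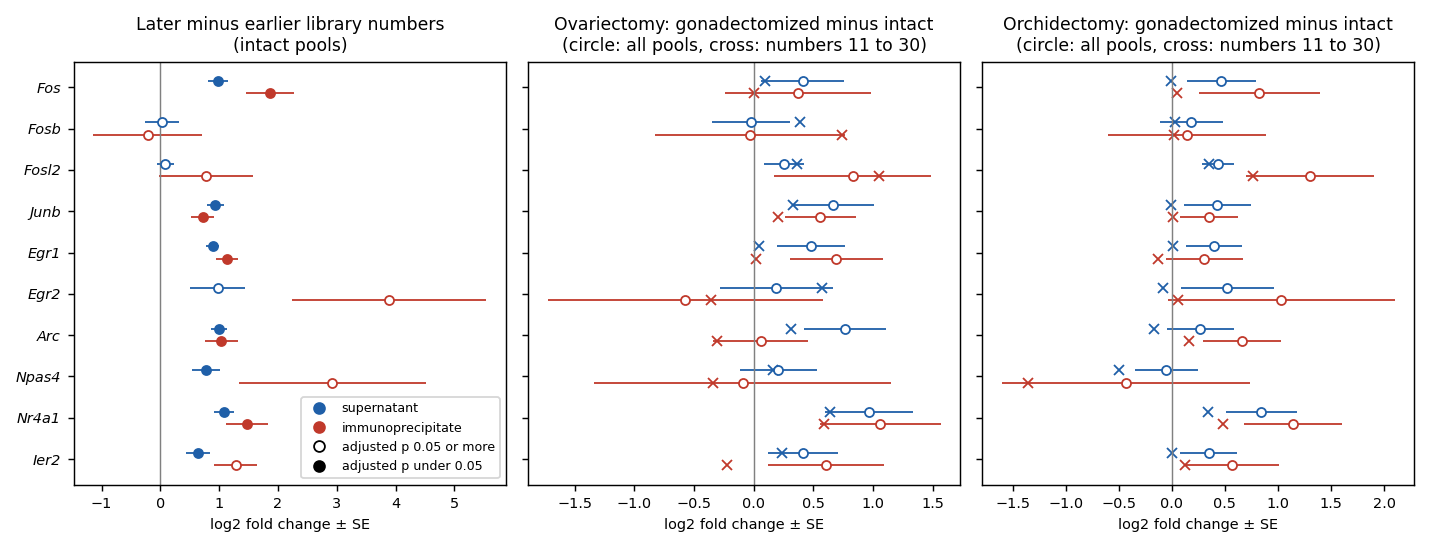
Log2 fold changes of the 10 genes, later minus earlier library numbers in intact pools (left) and gonadectomized minus intact in females (middle) and males (right). Blue is supernatant, red immunoprecipitate, bars are the SE, filled circles passed the test and crosses are values in libraries 11 to 30 alone. In the left panel 7 blue and 5 red circles are filled, and in the right panel most blue crosses lie near 0.

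Other rapid response genes of the same kind, listed apart from the members, gave calls in one direction. Of 31 tested in the supernatants 9 passed as higher and none as lower (edgeR), with a median of 0.26. The shares of all genes that passed as higher were 8.98% in the supernatants and 4.15% in the immunoprecipitates. Btg2, an antiproliferative gene, differed by 1.08, Egr4 by 0.95, and the phosphatase genes Dusp1, Dusp5 and Dusp6 by 0.76, 0.47 and 0.43. In the immunoprecipitates 4 of 32 passed as higher and none as lower, among them Klf6 (1.49), Dusp1 (1.10) and the salt-inducible kinase gene Sik1 (0.86). Genes upstream of the members, kinases and factors such as CREB, passed as higher in 10 of 27 cases in the supernatants and in 6 of 27 in the immunoprecipitates, with Creb1 at 1.41 in the latter. Of 14 later effector genes of neuronal activity, 5 passed as lower and 1 as higher in the supernatants, where 11.6% of all genes passed as lower. In the immunoprecipitates 1 passed as lower, Scg2 (-0.77), where 7.23% of all genes did, and the median was 0.02. The secretory genes Vgf and Scg2 fell by 0.98 and 0.82, Bdnf, a neurotrophin gene, fell by 0.56, and Plk2 rose by 0.57 in the supernatants (edgeR).

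Next, both fractions were compared. Over all conditions, 3 of 10 members were lower in the immunoprecipitate and none was higher (edgeR, 26 libraries), where 21.6% of all genes tested passed as lower. The share of members is near that of all genes. The members' median was -0.27, against -0.06 over all genes. Medians of listed markers were -0.83 for oligodendrocytes, -0.73 for microglia and -0.57 for astrocytes. They were 1.82 for GnRH neurons, -0.01 for neurons, 0.39 for endothelial and mural cells and 0.43 for ependymal cells. Oligodendrocyte markers summed to 980.3 to 1584 CPM in the immunoprecipitates and 1766 to 2590 CPM in the supernatants. The immunoprecipitates thus held RNA of other cells, and its part in the members' ratios was not tested.

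The 2 FOS-family genes of low level were among the 3. Fosb averaged 4.07 ± 1.08 CPM in the supernatants and 2.15 ± 1.06 CPM in the immunoprecipitates (SD, n = 13 pools) and was lower in 11 of 13 pools (log2 -0.91 ± 0.27, adjusted p 0.0093, edgeR). Fosl2 averaged 11.4 ± 1.91 and 6.79 ± 4.501 CPM and was lower in 11 of 13 pools (-0.84 ± 0.23, adjusted p 0.0049, edgeR). The third was Egr1, lower in 13 of 13 pools, with log2 ratios from -1.21 to -0.07 (fitted log2 -0.48 ± 0.18, adjusted p 0.0315, edgeR). Fos itself was level between the fractions, lower in 7 pools and higher in 6 (0.01 ± 0.26, adjusted p 0.982, edgeR). Ier2 was the one member higher in most pools, 9 of 13, without passing (0.32 ± 0.20, adjusted p 0.217, edgeR).

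Nr4a1 was lower in 12 of 13 pools and Arc in 11, and neither passed without pairing. With the pool as a block, which pairs the fractions of the same animals, both did, at -0.36 ± 0.10 for Nr4a1 (adjusted p 0.0112) and -0.25 ± 0.08 for Arc (adjusted p 0.0144, edgeR), so that 5 of 10 members were lower, where 26.2% of all genes passed as lower with the block. The call of Egr1 was lost on leaving out any 1 of 7 libraries, namely the immunoprecipitate of intact female replicate 1, ovariectomized replicate 2 or orchidectomized replicate 2, or the supernatant of intact female replicate 2, intact male replicate 2 or ovariectomized replicate 0 or 1. Its adjusted p then ranged up to 0.0673, and with the pool block it was 5.03e-05.

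**Figure D3:**
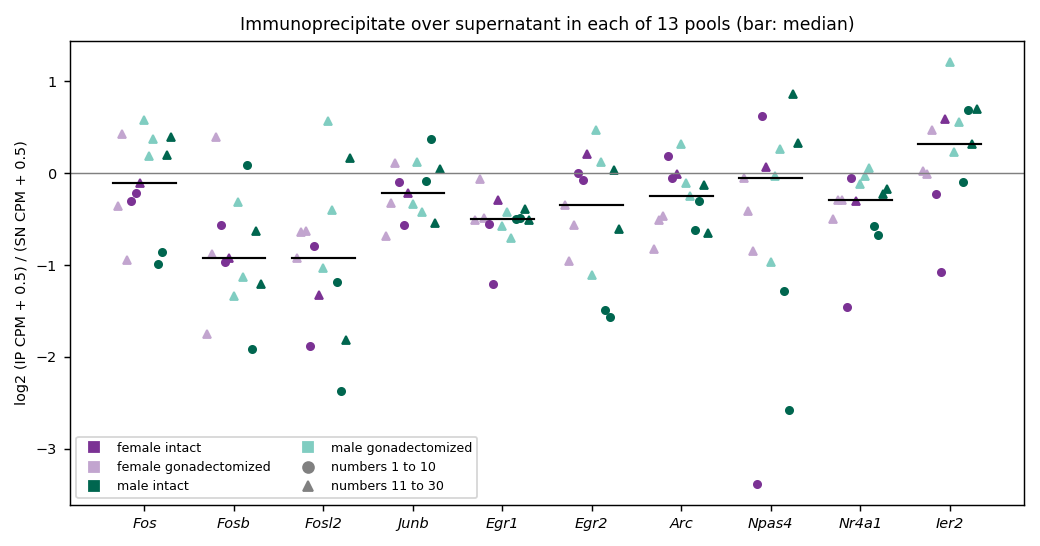
Log2 ratio of immunoprecipitate to supernatant CPM (pseudocount 0.5, vertical axis) of each gene in each of 13 pools. Colours are conditions, circles library numbers 1 to 10, triangles 11 to 30, and bars medians. All 13 Egr1 values lie below 0, and the Fos values of the 2 earlier male pools are among its lowest.

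The fractions were also compared within the library numbers. Libraries 1 to 10 hold intact pools only, and libraries 11 to 30 hold all conditions. In libraries 1 to 10 alone Fos was lower in the immunoprecipitate in all 4 pools (-0.55 ± 0.14, adjusted p 0.0206, edgeR). In libraries 11 to 30 alone it was at 0.10 ± 0.20 (adjusted p 0.768). The change of the fraction ratio with the numbers, tested in intact pools, did not pass for Fos (0.88 ± 0.49, adjusted p 0.3005, edgeR), Ier2 or Egr2. Ier2 passed as higher in the later libraries alone (0.51 ± 0.16, adjusted p 0.0309) and was at -0.11 ± 0.32 in the earlier ones. Egr2 passed as lower in the earlier libraries alone (-1.91 ± 0.46, adjusted p 0.0148) and was at -0.18 ± 0.31 in the later ones. Egr1 and Fosl2 passed as lower in both sets, Egr1 at -0.61 and -0.41 and Fosl2 at -1.50 and -0.76 in the earlier and later libraries. The shares of all genes that passed in either set of libraries alone are not given here.

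Within single conditions no member passed in edgeR without pairing, where 18% (intact females), 6.28% (ovariectomized), 25.9% (intact males) and 10.7% (orchidectomized) of all genes passed in either direction. By unadjusted p under 0.05, 1 member did in intact females and 1 in intact males, and DESeq2 and limma voom each called Fosl2 in these 2 conditions and no member in the other 2. Shares of all genes for these counts are not given here. With the pool block, Egr1 and Fosl2 were lower in intact females, at -0.69 (adjusted p 0.0094) and -1.45 (adjusted p 0.0420). Arc was lower in ovariectomized females (-0.61, adjusted p 0.0333). In intact males Arc (-0.43, adjusted p 0.0304), Egr1 (-0.47, adjusted p 0.0162) and Fosl2 (-1.46, adjusted p 0.0194) were lower, and in orchidectomized males Egr1 was (-0.57, adjusted p 0.0243; edgeR). With the block, 9.38%, 3.42%, 12.6% and 5.47% of all genes passed as lower in these conditions, in the order above. Gonadectomy did not pass as changing the ratio of the fractions for any member in females or males by edgeR, DESeq2 or limma voom, none had an unadjusted p under 0.05 in edgeR, and 0% of all genes passed either test.

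Other genes of the rapid response list went both ways between the fractions, 7 of 31 higher and 5 lower. Of all genes 21.3% were higher and 21.6% lower. Btg2 (1.83), the stress phosphatase subunit gene Ppp1r15a (1.58) and Gadd45g (0.84) were higher in the immunoprecipitate, and Egr3 (-1.35), Per1 (-0.77) and Maff (-0.75) were lower. Of the upstream genes 17 of 27 were lower, Camk2a at -0.99, and only the CREB coactivator gene Crtc3 (1.56) was higher. Activity-regulated effector genes were lower in 6 of 14 cases and higher in 1, with Vgf at -1.26 and Bdnf at -0.44 (edgeR).

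Gonadectomy was then set against the intact state, which asks how the loss of gonadal steroids affected these genes. No member passed in either sex or fraction by edgeR, DESeq2 or limma voom. Of all genes, 0.0122% passed in the female supernatants and 0% in each of the other 3 comparisons (edgeR). By unadjusted p under 0.05, 2 members did in female supernatants (Nr4a1 and Arc), 2 in male supernatants and 2 in male immunoprecipitates (Nr4a1 and Fosl2 in both), and none in female immunoprecipitates. The share of all genes at this unadjusted threshold is not given here, so these counts are not read as a result about the members. The members' medians were 0.41 in both supernatant comparisons, 0.46 in female and 0.61 in male immunoprecipitates, where those of all genes lay between -0.01 and 0.01. All gonadectomized libraries carry later numbers, so the numbering is partly confounded with gonadectomy.

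Nr4a1 had the largest supernatant differences. In ovariectomized females it stood at 71.7, 75.5 and 39.5 CPM in the supernatants, against 30.4, 27.5 and 39.9 CPM in intact ones, so that replicate 2 overlapped the intact pools (0.97 ± 0.37, adjusted p 0.653, edgeR). In orchidectomized males it stood at 85.5, 86.4 and 80.2 CPM, above all 4 intact males (0.85 ± 0.34, adjusted p 1.00, edgeR). In libraries 11 to 30 alone the male difference was 0.34 ± 0.22, since the later intact males had 66.7 and 67.5 CPM, still below all 3 orchidectomized pools. Its immunoprecipitates had 78.5, 84.7 and 83.2 CPM in orchidectomized males and 50.8, 61.6 and 32.2 CPM in ovariectomized females. The male values again lay above all intact ones (1.14 ± 0.46, adjusted p 0.525, edgeR), and within libraries 11 to 30 the difference was 0.49 ± 0.23.

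For Fos, Egr1, Junb and Ier2 the male supernatant difference was near 0 within the later numbers. Fos had 45.7, 48.2 and 56.3 CPM in orchidectomized supernatants, in the range of the later intact males, and its log2 difference went from 0.47 over all pools to -0.004 within libraries 11 to 30. Egr1 had 201, 203 and 198 CPM, between the 2 later intact males, and went from 0.40 to 0.01. Junb went from 0.43 to -0.01, Ier2 from 0.35 to 0.0009 and Arc from 0.27 to -0.17. Fosl2, with 14.01, 12.1 and 14 CPM against 8.21 to 11.8 CPM in intact males, kept most of its small difference (0.43 over all pools and 0.35 within libraries 11 to 30). Npas4 lay below the later intact males after orchidectomy, at 7.28, 7.15 and 4.92 CPM against 7.99 and 10.4 CPM in the supernatants (-0.50 ± 0.21 within libraries 11 to 30, adjusted p 0.588, edgeR). Its immunoprecipitates had 3.48, 7.01 and 6.03 CPM against 14.9 and 13.2 CPM (-1.36 ± 0.45, adjusted p 0.803, edgeR). Neither fraction overlapped, and neither difference passed. In females 1 intact pool is left among the later numbers, and within them Fos was at 0.09, Egr1 at 0.04 and Nr4a1 at 0.64 in the supernatants.

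One ovariectomized pool was the lowest of its group for most members in both fractions. Replicate 2 had the lowest supernatant value of its group for 10 of 10 members, for example 33.6 CPM of Fos against 61.1 and 37.8, 75.8 CPM of Junb against 158 and 158, and 136 CPM of Egr1 against 194 and 193. In the immunoprecipitates it was lowest for 8 of 10 members, the exceptions being Fosb and Fosl2. Its markers of neurons (5499 CPM in the supernatant), astrocytes (637 CPM) and oligodendrocytes (1925 CPM) were close to those of replicate 1 (5471, 610.1 and 2079 CPM). Other markers of its supernatant were the lowest of the group. Microglia markers summed to 69.56 CPM against 96.96 and 101 CPM in replicates 0 and 1, endothelial and mural markers to 34.98 against 43.09 and 65.72 CPM, and GnRH neuron markers to 170.4 against 359.2 and 548.9 CPM. Their part in the lower values was not tested. The share of all genes for which replicate 2 was lowest was not counted. The members vary together across pools, so 10 of 10 does not stand for independent genes. Dropping any 1 library of these groups gave no call in the gonadectomy comparisons.

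No member differed between the sexes, in intact or gonadectomized mice and in either fraction, by edgeR, DESeq2 or limma voom, and none had an unadjusted p under 0.05 in edgeR. Of all genes, 0.0428% passed in intact and again in gonadectomized supernatants, 0.0248% in intact and 0.0186% in gonadectomized immunoprecipitates. Male minus female medians of the members were 0.23 and 0.13 in intact and gonadectomized supernatants and 0.33 and 0.66 in the immunoprecipitates. Nr4a1 was higher in males by 0.54 and 0.42 in the supernatants and by 0.69 and 0.77 in the immunoprecipitates, in the same order, the lowest adjusted p being 0.526 (edgeR). Of the intact pools, 1 of 3 female and 2 of 4 male ones carry later numbers, and the part of this in the medians was not tested. Gonadectomized pools held 7 mice in females and 5 in males, so sex and pool size cannot be told apart there.

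The members varied together across pools. Over 13 supernatants, the 45 pairs of members had a median Pearson r of 0.71 on log2 values, from 0.26 (Fosb with Ier2) to 0.97 (Egr1 with Arc), and over the 9 later supernatants alone a median of 0.58. In the immunoprecipitates the medians were 0.57 over 13 and 0.32 over the 9 later pools, with Fos and Nr4a1 at 0.81 in the latter. Fosb had a median r of 0.43 with the others over 13 supernatants, the lowest of the members, and 0.87 over the 9 later ones, the highest, where Npas4 (0.35) and Fosl2 (0.52) were lowest. These are descriptions: the pools share library numbers, depth and tissue, and earlier and later pools form separate sets.

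Both fractions of a pool were also compared. Within the 9 later pools, Nr4a1 in the supernatant and in the immunoprecipitate had a Pearson r of 0.96 (permutation p 0.00042, adjusted over 10 members 0.0042) and a Spearman rho of 0.92 (permutation p 0.00139, adjusted 0.0139). Without the 2 pools farthest from the median supernatant value, r was 0.86. For Fos r was 0.71 (permutation p 0.021, adjusted 0.0968) and rho 0.60, and for Egr1 0.74 (permutation p 0.029, adjusted 0.0968) and 0.43. No other member had an adjusted p under 0.05, and Fosb had an r of 0.07. These 9 pools span all conditions and were permuted across them. Differences between conditions therefore enter r and p, and agreement of pools within a condition was not tested.

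**Figure D4:**
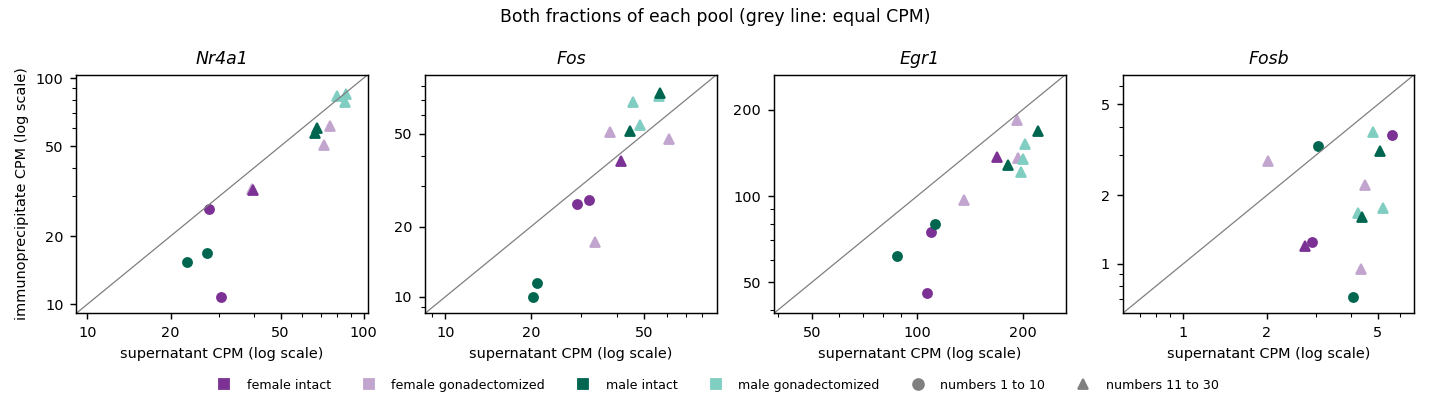
CPM in the immunoprecipitate (vertical, log scale) against the supernatant (horizontal, log scale) of each of 13 pools for Nr4a1, Fos, Egr1 and Fosb. Colours are conditions, circles are library numbers 1 to 10 and triangles 11 to 30, and the grey line marks equal CPM. Nr4a1 rises with the line in the later pools, with most points below it, and all Egr1 points lie below it.

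The genes most like the members were sought by the Pearson r of log2 (CPM + 0.5) with the members' mean z-score over 13 pools of a fraction. Among 10625 genes with at least 5 CPM in the supernatants, Dusp1, a dual-specificity phosphatase gene, came first (r 0.94), then Btg2, Nab2, Egr4, Stard5, Ddit4, Zfp385b and Spata2l, the last at 0.86. Among 10659 genes in the immunoprecipitates, Vezf1 came first (r 0.96), then Rfx3, Usp2, Dennd5a, Rgs8, Map6d1, Ccng2 and Klhl5, the last at 0.92. No gene stands in both groups of 8.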

How the data were processed

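RNA was amplified with SMART-Seq v4 and sequenced on a HiSeq in paired-end runs, per the labels' protocols. The authors deposited estimated counts per gene for 26 libraries, of which 1.21% were off a whole number by over 0.001. TopHat2 2.0.9, Bowtie2 2.1.0, Cufflinks, Cuffdiff 2.1.1 and build mm10 are named in the submitters' processing notes, and the gene annotation is not given in the sources used here. How reads of shared sequence were counted is not given either.

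Counts were rounded, filtered (filterByExpr of edgeR, minimum count 10, minimum total 15), TMM-scaled and tested with the edgeR 4.0.16 quasi-likelihood test in R 4.3.3, with Benjamini-Hochberg adjustment over all genes tested and a threshold of 0.05. Comparisons of both fractions used 8 groups in 1 fit of 26 libraries, gonadectomy and sex used 4 groups in a fit of the 13 libraries of a fraction, and the numbering comparison used the 7 intact libraries of a fraction with sex as a term. DESeq2 1.42.0, limma 3.58.1 (voom), the size factors of DESeq2, no filter, blocks, refits within the library numbers and leaving out each library were the alternatives. The fits were tested on simulated data. Pools are of different mice. The fractions of a pool come from the same animals and so are paired by design. Correlations of their deviations from the group means were 0.014 to 0.17. Permutation tests of correlations drew 100000 resamples. Reads carry no molecular identifiers, so counting error alone understates the error of a library. The members, lists and rules for naming genes (all members, up to 6 tested genes of a list by size of change, and the 8 most alike) were chosen with earlier results of these data known.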

Additional observations from a re-analysis of the deposited data

Results flagged for a closer look

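The Fos ratios of the fractions had opposite signs in 2 conditions, and neither condition passed. The fits gave -0.20 ± 0.54 in intact females (adjusted p 0.849) and 0.38 ± 0.54 in orchidectomized males (adjusted p 0.742, edgeR). How many pairs of conditions were searched over the members is not given here. Fos was lower in the immunoprecipitate than in the supernatant in all 3 pools of intact females (log2 ratios of -0.30, -0.21 and -0.10) and higher in all 3 pools of orchidectomized males (0.58, 0.18 and 0.37), so the means differed by 0.581. Every pool of one condition moved one way and every pool of the other the opposite way, and this difference was not tested. Of the 3 female pools 2 carry earlier library numbers, and all 3 male pools carry later ones. Single libraries that stand apart were looked for only in the intact males, the one condition with 4 pools, where the 2 earlier and 2 later pools leave little room for such a flag. None was found in 10 members and 2 fractions.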

How the results depend on the processing

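Over all conditions, the number of members that differed between fractions was 3 in most alternatives, 4 in libraries 1 to 10 alone, 4 in libraries 11 to 30 alone and 5 with the pool as a replicate block. Of all genes, 21.6% passed as lower and 21.3% as higher in the main fit, and 26.2% as lower with the block. The shares in libraries 1 to 10 or 11 to 30 alone are not given here, so the 4 members in each cannot be set against them. The block gave 2 members in intact females, 1 in ovariectomized females, 3 in intact males and 1 in orchidectomized males, where the fit without it gave 0. The Wald test of DESeq2 and limma voom each gave 1 in intact females and 1 in intact males. For the library numbers in intact immunoprecipitates, the Wald test of DESeq2 gave 8 members and the size factors of DESeq2 gave 3, against 5. The number of members whose fractions followed each other across pools fell from 8 over 13 pools to 1 over the 9 later ones. Fos was at -0.55 between fractions in libraries 1 to 10 alone, which hold intact pools only, against 0.01 over all libraries. The cause of these changes was not tested. Leaving out 1 library gave 2 to 3 members between fractions over all conditions, 0 to 1 in intact females and 0 to 1 in intact males, 5 to 8 for the library numbers in intact supernatants, 1 to 4 in intact immunoprecipitates and 0 to 2 for the change of the fraction ratio with the numbers. Gonadectomy and sex gave 0 members under every alternative run, the replicate number as a block, which changed no call there, and a term for the library numbers included. A replicate block for the library numbers within a fraction was not run, since no replicate number has both earlier and later libraries of a sex. The median of all genes between fractions was -0.16 in limma voom, -0.14 with no filter and -0.15 with the pool block, against -0.06. The spread of the immunoprecipitates and 2 or 3 reads of Npas4 and Egr2 in some libraries limit the precision.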
